A study of Homo sapiens with 6 samples.

Results

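The genes described here are 9 components of the tight junction: the claudins CLDN1, CLDN11 and CLDN12, the MARVEL proteins OCLN and MARVELD2, the junctional adhesion molecules F11R and JAM3, and the plaque proteins TJP1 and CGN. They were taken by gene symbol from the 38900 Ensembl gene IDs of 1 expression table, and the set was chosen because CLDN1 was among the strongest increases after combretastatin A4. The difference between the groups in these genes is therefore given as a description, with no p-value, and nothing is concluded from its size. The table holds 6 polyA RNA sequencing libraries of hTERT RPE1, an established human retinal pigment epithelial line immortalised with telomerase. All cultures had been held at full confluency for 5 days to make them quiescent and were then given fresh medium for 6 hours. Of these, 3 received 100 nM combretastatin A4 (CA4), a small molecule that binds tubulin and depolymerizes microtubules, and 3 received 0.1% DMSO, the solvent. The comparison covers 1 cell line, 1 dose and 1 time, and nothing in the sources used here says whether replicates 1, 2 and 3 came from separate cultures. P-values therefore measure the spread between these libraries, which may be technical.

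Tight junctions seal the space between neighbouring epithelial cells near their apical border. Claudins span the membrane with 4 helices and join claudins of the next cell into strands, and the mix of claudins sets which ions and molecules can pass. CLDN1 is known as a sealing claudin of the skin barrier, and CLDN11 as the claudin of myelin and of the blood-testis barrier. OCLN (occludin) and MARVELD2 (tricellulin) lie in the same strands, tricellulin at the corners where cells meet. F11R (JAM-A) and JAM3 (JAM-C) are immunoglobulin-like adhesion molecules. TJP1 (ZO-1) is the cytoplasmic scaffold that ties these proteins to actin, and CGN (cingulin) binds both the scaffold and the cytoskeleton. In the retinal pigment epithelium the tight junction forms the outer blood-retinal barrier.

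Upstream sequences are shown for 3 of the genes, because they contrast the claudin that chose the set, a claudin that varied widely between CA4 libraries, and a plaque gene with almost no reads. Each is the run of 250 bases before a RefSeq transcript start (GRCh38.p14), written 5′ to 3′ on the gene's own strand. Capitals mark GC boxes, meaning GGGCGG on either strand.
CLDN1: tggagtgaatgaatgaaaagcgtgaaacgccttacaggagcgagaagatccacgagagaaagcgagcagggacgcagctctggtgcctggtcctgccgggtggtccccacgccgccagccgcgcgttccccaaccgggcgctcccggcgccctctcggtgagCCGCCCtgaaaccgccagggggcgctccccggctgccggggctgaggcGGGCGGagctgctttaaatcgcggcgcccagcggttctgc
CLDN11: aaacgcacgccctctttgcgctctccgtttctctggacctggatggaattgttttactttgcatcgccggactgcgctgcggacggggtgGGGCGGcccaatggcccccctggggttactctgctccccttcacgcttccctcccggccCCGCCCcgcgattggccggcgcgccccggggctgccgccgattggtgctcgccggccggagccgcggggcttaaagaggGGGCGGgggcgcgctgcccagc
CGN: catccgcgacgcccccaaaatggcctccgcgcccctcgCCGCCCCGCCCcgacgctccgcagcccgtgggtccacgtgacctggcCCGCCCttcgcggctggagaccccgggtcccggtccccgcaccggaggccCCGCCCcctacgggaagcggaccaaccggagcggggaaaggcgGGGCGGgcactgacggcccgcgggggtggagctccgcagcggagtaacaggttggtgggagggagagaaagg
The CLDN1 window is chr3:190322447-190322696 on the minus strand. The CLDN11 window shown is chr3:170418618-170418867 and that of CGN is chr1:151511137-151511386, both on the plus strand. In GENCODE 29, 150 of the 250 bases of the CLDN1 window lie in exons, those of its opposite-strand neighbour CLDN16 and the 5′ end of CLDN1 itself. The CGN window lies within the annotated span of CGN and in no exon. In the table of upstream windows, 7 of the 9 genes had at least 1 entry, 12 windows in all. JAM3 and F11R had no entry.

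The 3 windows were rich in G and C, at 68.8% for CLDN1, 71.2% for CLDN11 and 76.0% for CGN, against a median of 58.0% over all 35116 windows. A second CLDN11 window, before another start, had 48.0% and 1 GC box. CLDN1 held 2 GC boxes, which started 88 and 40 bases before the transcript start. CLDN11 held 3 and CGN held 5, the first pair of which share 1 base, and a GC box was present in 42.6% of all windows. The same search covered 6 other motifs on both strands, none of which appeared in these 3 windows. They were CAGGTG, the E-box read by Snail and ZEB (17.5% of all windows), TGANTCA of AP-1 (6.6%), TATAAA (10.7%), GGAATG of TEAD factors (11.9%), the CArG box (1.2%) and the NF-kB site (5.2%). Both OCLN windows and 1 of the 4 TJP1 windows held a single CAGGTG. In GENCODE 29, all 250 bases of 1 OCLN window and 120 of the other lie in exons. That TJP1 window lies in no exon, and the bases after it were not found in a GENCODE 29 transcript of TJP1. A match describes letters and not a bound site, and its absence says only that these letters are not in the window.

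CLDN1 (ENSG00000163347, minus strand of chromosome 3, 190305701 to 190322475 in GENCODE 29 on GRCh38) was the member that differed most between the groups. In DMSO it had 503.2, 179.5 and 177.6 normalized counts in replicates 1, 2 and 3, a normalized count being a read count divided by a scaling factor of its library. In CA4 it had 1369, 894.2 and 1234. All CA4 libraries lay above all DMSO libraries, and within DMSO replicate 1 stood far above the others. The DMSO mean was 286.7 ± 187.4 and the CA4 mean 1166 ± 244.4 (SD, n = 3 each), a ratio of 4.07. On the scale of log2(normalized count + 1) the difference was 2.18 with a standard error of 0.40, which ranked 54 from the top among 13928 tested genes. These values rest on 521, 192 and 187 reads in DMSO and 1416, 797 and 1107 in CA4, so counting error is small beside the spread between libraries. Without DMSO replicate 1 the difference was 2.68, and over the other fits without a library it lay between 1.93 and 2.36.

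CLDN12 (ENSG00000157224, plus strand of chromosome 7, 90383721 to 90513402), a claudin with no PDZ-binding tail, was the most abundant claudin in the DMSO libraries. It had 711.8, 529.2 and 659 normalized counts in DMSO and 1033, 843.8 and 863.8 in CA4. Again all CA4 libraries lay above all DMSO libraries, by a smaller margin than for CLDN1. The means were 633.3 ± 93.98 and 913.6 ± 104.1 (SD, n = 3 each), and the log2 difference was 0.53 (SE 0.14). Shared exons with other genes covered at most 5.5% of the exon bases of CLDN12 for any single partner.

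CLDN11 (ENSG00000013297, plus strand of chromosome 3, 170418865 to 170454733) was even in DMSO and uneven in CA4. Its values were 81.13, 81.34 and 72.17 normalized counts in DMSO and 136.3, 63.96 and 261.9 in CA4. CA4 replicate 2 lay below every DMSO library and CA4 replicate 3 far above, so the groups overlapped. The means were 78.21 ± 5.234 and 154.1 ± 100.2 (SD, n = 3 each), with a log2 difference of 0.75 (SE 0.45). It was 0.26 without CA4 replicate 3 and 1.26 without CA4 replicate 2. In GENCODE 29, 18.3% of the exon bases of CLDN11 also belong to ENSG00000285218 on the same strand, which had between 15.19 and 21.32 normalized counts in every library.

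Occludin and tricellulin, the MARVEL proteins of the strand, were close to the limit of detection. OCLN (ENSG00000197822, plus strand of chromosome 5, 69492292 to 69558104) had 14.49, 17.76 and 30.39 normalized counts in DMSO and 18.36, 29.17 and 22.29 in CA4, from 131 reads in all. The groups overlapped, the log2 difference was 0.19 (SE 0.40), and it ran from -0.02 when DMSO replicate 1 was left out to 0.49 when DMSO replicate 3 was. The OCLN pseudogene OCLNP1, which holds 7.79% of the 50-base words of OCLN, had at most 5.697 normalized counts. MARVELD2 (ENSG00000152939, plus strand of chromosome 5, 69415065 to 69444330) had 2, 0 and 14 reads in DMSO and 0, 5 and 0 in CA4. A value of 0 allows up to 3 reads, or 2.805 to 3.366 normalized counts depending on the library, for counting error only. MARVELD2 and CGN had a mean under 10 normalized counts and were not tested, so 7 of the 9 genes entered the fit.

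The junctional adhesion molecules were well expressed, and their group means differed by less than the spread of the libraries. JAM3 (ENSG00000166086, plus strand of chromosome 11, 134068925 to 134152001) had 1382, 1447 and 1455 normalized counts in DMSO and 1201, 1461 and 1412 in CA4. Only CA4 replicate 1 was low, and the log2 difference was -0.08 (SE 0.10), or 0.01 without that library. Exons of NCAPD3 on the opposite strand cover 8.53% of its exon bases, and the strand used in counting is not given in the sources used here. F11R (ENSG00000158769, minus strand of chromosome 1, 160995211 to 161021348) had 447.2, 481.5 and 366.5 normalized counts in DMSO and 470.7, 372.5 and 371.2 in CA4. These groups overlapped and the log2 difference was -0.09 (SE 0.15). ENSG00000270149, a gene on the same strand that holds 36.58% of the exon bases of F11R, varied from 0 to 115.6 normalized counts between libraries. Summed with it, F11R had 466.5, 559.1 and 475.7 in DMSO and 470.7, 488.1 and 446.9 in CA4, still with overlap.

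Of the plaque proteins, TJP1 was abundant and CGN was nearly silent. TJP1 (ENSG00000104067, minus strand of chromosome 15, 29699367 to 29968865) had 2083, 1680 and 1864 normalized counts in DMSO and 2101, 1790 and 1870 in CA4. Replicate 1 was the highest library of each group, and the log2 difference was 0.04 (SE 0.11). Its sign was not stable, with -0.07 when libraries were scaled to the same total, -0.02 after quantile normalization, -0.04 without DMSO replicate 2 and -0.03 without CA4 replicate 1. CGN (ENSG00000143375, plus strand of chromosome 1, 151510510 to 151538692) had 11.59, 5.609 and 12.34 normalized counts in DMSO and 6.765, 3.366 and 5.573 in CA4. These came from 46 reads, and the groups overlapped.

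**Figure D1:**
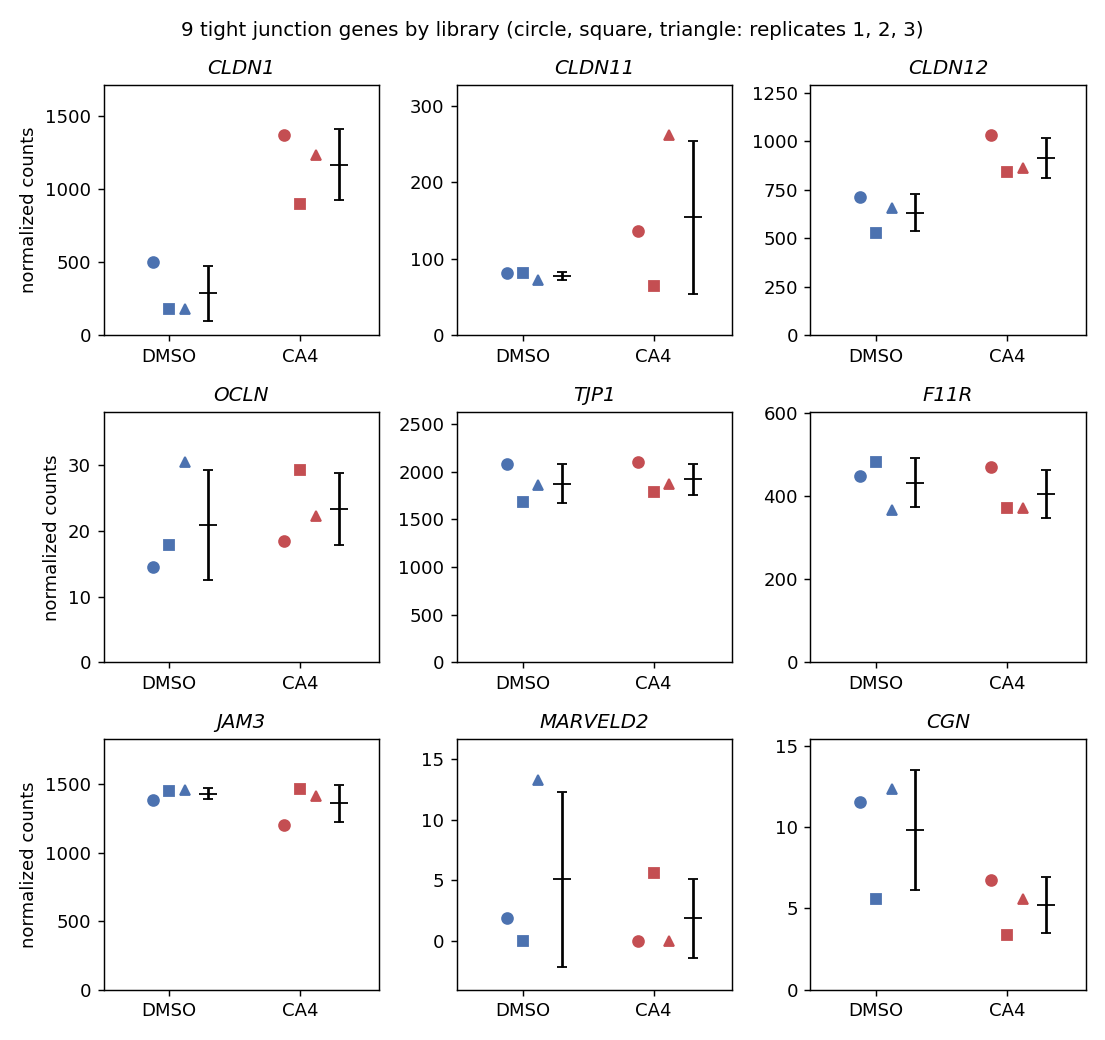
Normalized counts of the 9 tight junction genes in each library, 1 panel per gene, with circle, square and triangle for replicates 1, 2 and 3 of DMSO and CA4. In CLDN1 and CLDN12 all 3 CA4 libraries lie above the 3 DMSO libraries, while the groups overlap in the other genes.

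In limma's moderated test with Benjamini-Hochberg adjustment over all 13928 genes, 1 of the 7 tested members was past an adjusted p of 0.05, which was CLDN1, higher in CA4. Over all tested genes 4.94% passed, 2.97% as higher and 1.97% as lower. The CA4 libraries lay wholly above the DMSO libraries in 2 of the 7, CLDN1 and CLDN12, and wholly below in 0. Over all tested genes those shares were 14.3% and 13.4%. The member count was 0 when replicate 2 or 3 of DMSO or replicate 1 or 3 of CA4 was left out. Because the genes were chosen on this contrast, nothing is read from these counts. The size of the difference ran from -0.09 in F11R to 2.18 in CLDN1 on the log2 scale, while the median over all tested genes was -0.01 and the median size regardless of sign 0.22. In bulk libraries, a difference in the share of cells that express a gene and a difference in RNA per cell cannot be told apart.

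Levels of different genes were compared as normalized counts per kilobase of the longest annotated transcript. In DMSO the order was JAM3 with 365 ± 10.22 per kilobase, TJP1 with 235.9 ± 25.39, CLDN12 with 177.6 ± 26.36, F11R with 89.29 ± 12.2, CLDN1 with 82.37 ± 53.84 and CLDN11 with 36.06 ± 2.413 (SD, n = 3 each). The range of CLDN1, 51.01 to 144.5, enclosed that of F11R, so these neighbours did not differ beyond their spread. OCLN with 3.243, CGN with 1.934 and MARVELD2 with 1.16 per kilobase formed the low end, far under CLDN11, and each overlapped the next in its range.

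In CA4 the order of levels was JAM3 with 347.2 ± 35.26 per kilobase, CLDN1 with 334.8 ± 70.21, CLDN12 with 256.3 ± 29.19, TJP1 with 241.6 ± 20.34, F11R with 83.72 ± 11.8 and CLDN11 with 71.02 ± 46.18 (SD, n = 3 each). CLDN1 thus stood at place 5 of the 9 genes in DMSO and at place 2 in CA4. The ranges of JAM3 (307.1 to 373.4) and CLDN1 (256.9 to 393.1) overlapped, as did those of CLDN1 and CLDN12, of CLDN12 and TJP1 and of F11R and CLDN11. OCLN, CGN and MARVELD2 again had the lowest levels, at 3.615, 1.028 and 0.4273 per kilobase. With coding length in place of transcript length CLDN1 stood at place 4 in DMSO and place 1 in CA4, so the order depends on the length used.

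**Figure D2:**
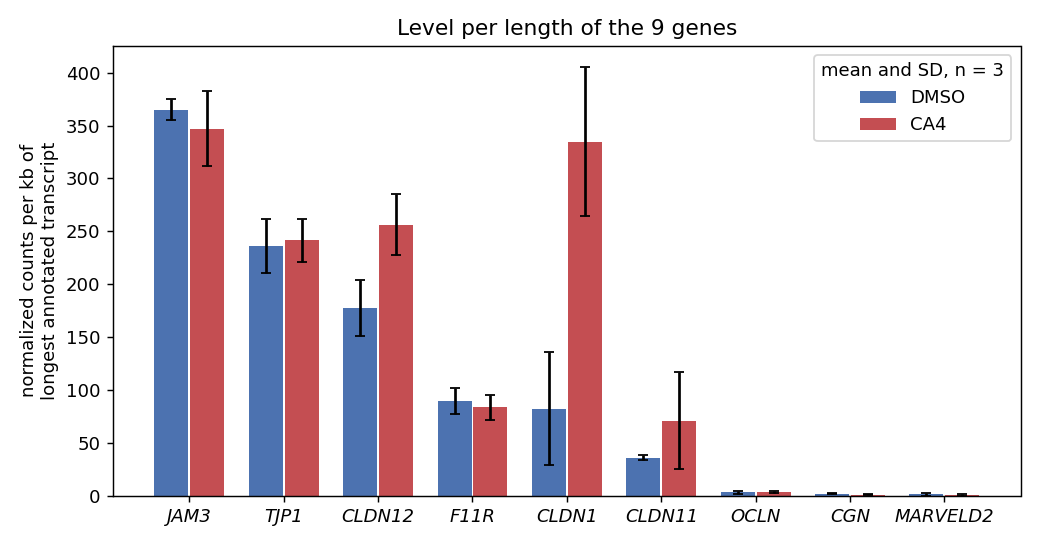
Mean level per gene in normalized counts per kilobase of the longest annotated transcript, as bars for DMSO and CA4 with the SD over 3 libraries. JAM3 is highest in both groups, and CLDN1 goes from 82.37 in DMSO to 334.8 in CA4.

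The claudins were also summed, as the total of 24 claudin genes per kilobase. Each library's sum was 508.9, 344.6 and 378.7 in DMSO and 894.3, 675.4 and 878.7 in CA4, with no overlap and a ratio of means of 1.99. The sum holds CLDN1, whose rise chose the set, so these values and the shares below are a description. Leaving CLDN1 out, the DMSO mean was 328.4 ± 35.64 and the CA4 mean 481.3 ± 55.61 (SD, n = 3 each), a ratio of 1.47. The largest part of this remainder was CLDN12, also a member, at 177.6 ± 26.36 in DMSO and 256.3 ± 29.19 in CA4. CLDN11 had 120.8 per kilobase in CA4 replicate 3, but its 29.49 in CA4 replicate 2 was below every DMSO library. The remainder therefore did not rise as a whole. CLDN1 made up 28.4%, 15.0% and 13.5% of the claudin sum in DMSO and 44.0%, 38.0% and 40.3% in CA4. CLDN12 made up 39.2%, 43.1% and 48.8% in DMSO and 32.4%, 35.0% and 27.6% in CA4. Per length, the leading claudin transcript was CLDN12 in every DMSO library and CLDN1 in every CA4 library.

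**Figure D3:**
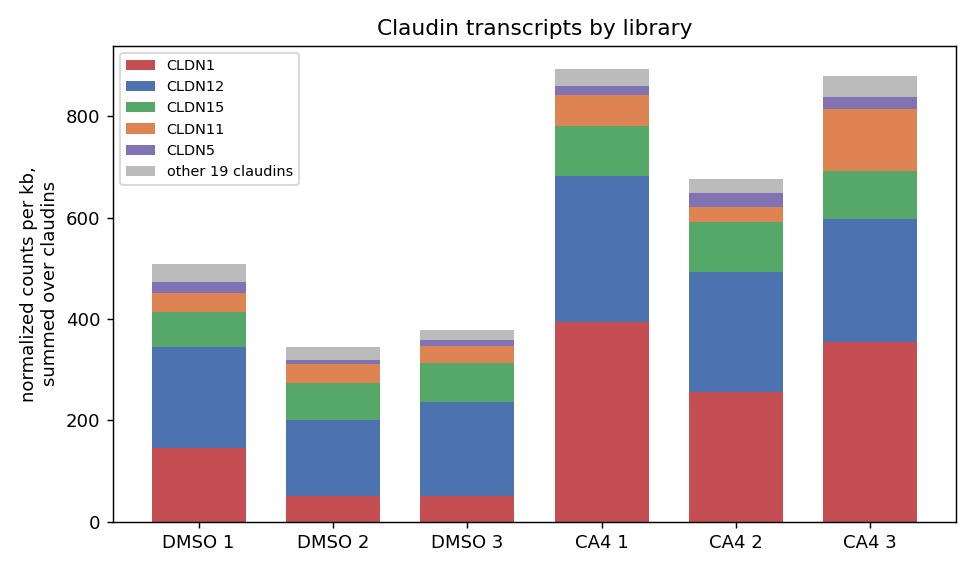
Stacked bars of claudin levels in each of the 6 libraries, in normalized counts per kilobase of the longest annotated transcript, with CLDN1, CLDN12, CLDN15, CLDN11 and CLDN5 drawn separately and 19 other claudins together. The whole bar is 344.6 to 508.9 in DMSO and 675.4 to 894.3 in CA4, and CLDN1 is the largest segment in the CA4 bars.

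Of the 21 other claudins, 4 were abundant enough to be tested, and 0 passed the threshold in limma, with 1 (CLDN15) at an unadjusted p under 0.05, against 23.0% of all tested genes. Run on the recovered reads, edgeR called 0 of the 4 (4.62% of all genes), and DESeq2 called 0 of the 2 to which it gave an adjusted p (12.3% of all genes). No median is given for the 4, because the filter chose them in part: CLDN14, at 9.849 ± 3.225 in DMSO, passed it only through its CA4 level of 18.85 ± 6.777 (SD, n = 3 each). CLDN10, named after its values were seen, fell short of the filter with 22.21, 6.544 and 0.9496 normalized counts in DMSO and 1.933, 1.122 and 1.115 in CA4. CLDN15, a claudin known to form cation pores, had 147.8, 157.1 and 164.3 normalized counts in DMSO and 206.8, 208.7 and 205.1 in CA4. Its groups did not overlap, and its log2 difference was 0.40 (SE 0.13, limma adjusted p = 0.126). CLDN5, the main claudin of endothelium, averaged 36.61 ± 17.96 under DMSO against 57.42 ± 13.39 under CA4 (SD, n = 3 each), with overlap and a limma adjusted p of 0.332. CLDN9 had 11.71 ± 6.07 and 23.27 ± 4.37 (SD, n = 3 each; limma adjusted p = 0.27). CLDN19, known as the main claudin of human retinal pigment epithelium and singled out here after its values were seen, had at most 1.899 normalized counts in any library. In 6 of the 21 claudins no library had a read.

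Further genes of the junction, of its partners and of transcription factors acting on claudin or occludin genes were counted in 5 more lists. Together with the other claudins they are called other junction genes here, 100 in all. Of these 60 were tested, and 3 passed limma's adjusted p of 0.05, 2 higher and 1 lower. Among all tested genes the shares past the threshold were 2.97% higher and 1.97% lower. At an unadjusted p under 0.05 there were 16 of the 60 in limma, against 23.0% of all tested genes. DESeq2 called 9 of the 58 with an adjusted p, against 12.3% of all, and edgeR called 2 of the 60, against 4.62%. The groups did not overlap in 10 higher and 9 lower, against 14.3% and 13.4% of all tested genes. Their median log2 difference was 0.08, with 33 above 0 and 27 below. This balance depended on the scaling. With libraries scaled to the same total the median was -0.02, 28 lay above 0, and 1 passed as higher and 3 as lower. That scaling also moved the median of all tested genes, from -0.008 to -0.109. With the same 75th percentile 32 lay above 0 with a median of 0.048, and after quantile normalization 32 with 0.057.

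**Figure D4:**
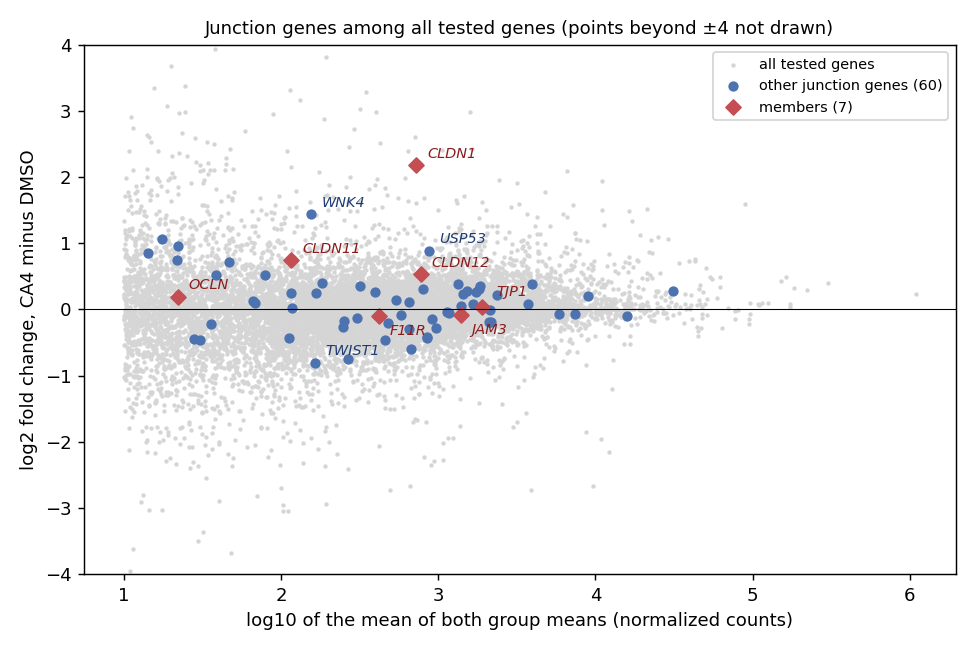
Log2 difference between CA4 and DMSO against log10 of the mean of the group means in normalized counts, for all tested genes (grey), 60 other listed genes (blue) and 7 tested members (red). CLDN1 lies at 2.18, and WNK4, USP53 and the transcription factor TWIST1 are the other listed genes past the threshold.

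Membrane proteins other than claudins numbered 13, of which 6 were tested. In limma 0 passed, with 0 at an unadjusted p under 0.05, and 0 passed in edgeR or DESeq2. The shares over all genes were 4.94% in limma, 23.0% at an unadjusted limma p under 0.05 and 12.3% in DESeq2. The most abundant was CLMP, a CAR-like adhesion molecule, averaging 2218 ± 832.9 under DMSO against 2517 ± 683.3 under CA4 (SD, n = 3 each; limma adjusted p = 0.702). Its sign was negative without DMSO replicate 3. JAM2, the third junctional adhesion molecule, had 518.2 ± 103 and 444.7 ± 42.16 (SD, n = 3 each; limma adjusted p = 0.511). BVES, a popeye-domain adhesion protein, had a log2 difference of -0.13 (SE 0.15, limma adjusted p = 0.648).

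Scaffold and polarity proteins numbered 25, of which 22 were tested. In limma 1 passed as higher and 0 as lower, with 5 at an unadjusted p under 0.05. Among all tested genes 2.97% passed as higher, 1.97% as lower, and 23.0% had such an unadjusted p. The gene that passed was USP53, a member of the ubiquitin-specific protease family that binds ZO proteins, which edgeR also called alone. DESeq2 called 3, USP53 and AMOTL2 as higher and MAGI3 as lower, against 12.3% of all genes to which it gave an adjusted p. USP53 had 591.1, 536.6 and 710.3 normalized counts in DMSO and 1041, 1120 and 1228 in CA4. It rose in CA4 with no overlap, by 0.89 on the log2 scale (SE 0.13, limma adjusted p = 0.0158). The limma adjusted p was 0.0608 without DMSO replicate 2, 0.0642 without CA4 replicate 3 and 0.059 without the variance trend. AMOTL2, an angiomotin that binds YAP and junction proteins, had 3434 ± 199 and 4481 ± 546.1 (SD, n = 3 each), with no overlap and a limma adjusted p of 0.0862. MAGI1, a membrane-associated guanylate kinase, had a log2 difference of 0.31 (limma adjusted p = 0.594), and AMOTL1 one of 0.08 (limma adjusted p = 0.81) that was negative with libraries scaled to the same total or quantile normalized.

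In a list of 15 other junction regulators all were tested. In limma 1 passed as higher and 0 as lower, with 4 at an unadjusted p under 0.05. The shares of all tested genes were 2.97% higher, 1.97% lower and 23.0% at an unadjusted p under 0.05. On the recovered reads edgeR called 0, and DESeq2 called 2, WNK4 as higher and MICALL2 as lower. DESeq2 called 12.3% of all genes to which it gave an adjusted p. WNK4, a kinase known to phosphorylate claudins and to control paracellular chloride passage, had 123.6, 57.03 and 74.07 normalized counts in DMSO and 290.9, 188.5 and 196.2 in CA4. It rose with no overlap, 2.72-fold on the scale of log2(normalized count + 1) (log2 SE 0.31, limma adjusted p = 0.0449). The call depended on single libraries. Leaving out DMSO replicate 2 or 3 gave a limma adjusted p of 0.136 or 0.154, and leaving out CA4 replicate 1, 2 or 3 gave 0.135, 0.0747 or 0.112. It was 0.0508 with no filter on low values, 0.0524 with libraries scaled to the same total and 0.0913 without the variance trend, and edgeR gave an adjusted p of 0.0526. Exons of COA3 on the opposite strand cover 16.03% of the exon bases of WNK4, and COA3 itself had a log2 difference of -0.22 (limma adjusted p = 0.325). RHOA, CDC42 and MYLK, the most abundant members of the list, had log2 differences of -0.10, -0.07 and 0.20 (limma adjusted p = 0.428, 0.631 and 0.337). ARHGEF2 (GEF-H1), an activator of RhoA that is known to bind microtubules and was named after its values were seen, had 1386 ± 108.1 and 1684 ± 186 normalized counts (SD, n = 3 each; limma adjusted p = 0.186).

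Transcription factors known to act on claudin or occludin genes numbered 15, of which 6 were tested, and in limma 0 passed as higher and 1 as lower, with 4 at an unadjusted p under 0.05. The gene past the threshold was TWIST1, which edgeR also called alone, while DESeq2 called 4, ZEB1 as higher and SNAI1, ZEB2 and TWIST1 as lower. Over all genes those shares were 23.0% at an unadjusted p under 0.05 and 12.3% in DESeq2. TWIST1, a basic helix-loop-helix factor of epithelial-mesenchymal transition, had 211.5, 193.5 and 222.2 normalized counts in DMSO and 114, 127.9 and 115.9 in CA4. It fell by 0.80 on the log2 scale with no overlap (SE 0.15, limma adjusted p = 0.0274). Leaving out DMSO replicate 2 or 3 gave a limma adjusted p of 0.0839 or 0.119, and leaving out CA4 replicate 1, 2 or 3 gave 0.0968, 0.0508 or 0.0937. Among repressors that read the CAGGTG E-box, SNAI1 had a log2 difference of -0.46 (limma adjusted p = 0.0879), ZEB2 one of -0.60 (limma adjusted p = 0.0608) and ZEB1 one of 0.38 (limma adjusted p = 0.0713). The groups did not overlap in these 3 genes, which did not share a direction, and overlapped in SNAI2, a further Snail factor, at -0.43 (limma adjusted p = 0.508). Claudin-binding membrane proteins and junction proteases numbered 11, with 7 tested and 0 past the threshold in limma, edgeR or DESeq2, and 2, CD9 and MMP14, at an unadjusted limma p under 0.05. CD9, a tetraspanin that binds CLDN1, had 1620 ± 198.8 and 2055 ± 131 normalized counts (SD, n = 3 each; limma adjusted p = 0.108). CD81, also a tetraspanin partner of CLDN1, had a log2 difference of -0.06 (limma adjusted p = 0.775) that was slightly positive without DMSO replicate 2 or CA4 replicate 1. MMP14, a membrane metalloproteinase, had one of 0.28 (limma adjusted p = 0.187).

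The genes whose log2 values followed CLDN1 most closely over the 6 libraries were sought among 11688 others averaging 50 normalized counts or more. They were BAK1, RIC8A, XBP1, PDCD1LG2 and TICAM1, with Pearson r from 0.9968 to 0.999. Of these, PDCD1LG2 had the log2 difference nearest in size to that of CLDN1, with 815.1, 404.8 and 391.2 normalized counts in DMSO and 1718, 1227 and 1398 in CA4. When the group means were removed first, the closest included RHOG, XBP1, EFTUD2 and CCL2, with r from 0.9964 to 0.9991. XBP1 was on both lists, with 2987, 2281 and 2265 in DMSO and 3640, 3323 and 3578 in CA4, so that DMSO replicate 1 was high in it as in CLDN1. Among the members, CLDN12 had r = 0.93 with CLDN1 over the 6 libraries, CLDN11 0.60, TJP1 0.50, F11R -0.10 and JAM3 -0.56. These values carry the group difference that chose CLDN1. With the group means removed they were 0.68 for CLDN12, 0.31 for CLDN11, 0.83 for TJP1, 0.34 for F11R and -0.51 for JAM3, so the order changed and F11R changed sign. With 6 points from the same libraries and so many genes searched, high values are found readily, and these correlations are a description.

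The 2 genes on each side of CLDN1 in the RefSeq gene order were low or overlapped between the groups. That order lists CLDN16 before CLDN1, whereas in GENCODE 29 CLDN16 starts at 190322541, after the end of CLDN1 at 190322475. CLDN16, a claudin of the kidney that lies on the opposite strand with its 5′ end 66 bases from that of CLDN1 in GENCODE 29, had 14.5, 9.3 and 1.9 normalized counts in DMSO and 3.9, 2.2 and 8.9 in CA4. NMNAT1P3 and TMEM207 were listed at 0 in every library. IL1RAP, an interleukin 1 receptor subunit, had 745.6, 451.6 and 579.2 in DMSO and 626.3, 430.9 and 757.9 in CA4, a log2 difference of 0.02 (SE 0.25, limma adjusted p = 0.972).

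The label of the cells was set beside marker genes. Of 10 markers of retinal pigment epithelium, TTR was at 0 in every library and TYR had at most 2.899 normalized counts, while OTX2 and MITF, transcription factors of that tissue, were present. The summed level of the 10 markers was 1145 to 1850 in DMSO and 650.4 to 1055 in CA4. The sum was carried by MITF and OTX2, and the list did not move as a whole: of its 6 tested genes 4 had a negative and 2 a positive log2 difference. MITF averaged 885.3 ± 239.5 under DMSO and 457.2 ± 169.6 under CA4 with overlap, and OTX2 533.4 ± 104.2 and 243.9 ± 15.47 without it (SD, n = 3 each). OTX2 passed as lower (log2 difference -1.11, limma adjusted p = 0.0158), but leaving out DMSO replicate 2 or 3 gave 0.0614 or 0.0816 and leaving out CA4 replicate 1 or 3 gave 0.0598 or 0.0596, and it was 0.0573 without the variance trend. RPE65 averaged 27.55 and 15.96 with no overlap (limma adjusted p = 0.347), BEST1 77.32 and 72.53, PMEL 15.57 and 18.67 and SERPINF1 14.57 and 16.77. Among general epithelial genes, CDH1 and EPCAM had at most 32.29 and 4.458 normalized counts, whereas the keratins KRT8 (at least 14120) and KRT18 (at least 8393) were high and KRT19 had 0 to 62.64. Of the 5 mesenchymal genes, VIM, CDH2, FN1 and COL1A1 were high in all libraries and COL1A2 had 12.34 to 59.83. CDH2 passed as higher (log2 difference 0.31, limma adjusted p = 0.0452), which it did in 1 of the 6 fits without a library, the one that left out DMSO replicate 1, and did not under the 3 other scalings, with no filter, without the variance trend or in edgeR. The 5 endothelial markers summed to 1138 to 1661 in DMSO and to 1818, 1472 and 3470 in CA4, with PECAM1, CDH5, VWF and KDR highest in CA4 replicate 3, the library where CLDN11 was also highest, and TEK lowest of the CA4 libraries there. Of the leukocyte markers, PTPRC had at most 10.63 normalized counts in any library and CD3E was at 0 throughout, while LYZ had 16.42, 15.89 and 18.04 in DMSO and 30.93, 21.32 and 32.32 in CA4. Whether the cells behind these markers have a part in the claudin values was not tested.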

How the data were processed

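Normalized counts are a signal that the authors made by dividing each gene's reads by 1 scaling factor per library. Per the submitters' processing notes, GRCh38, Trim Galore 0.6.6, FastQC 0.12.1, STAR 2.7.9a, Salmon 1.8.0 and the authors' DESeq2 1.44.0 were used, with no roles given. The annotation release and the use of strand are not given in the sources used here, so reads of overlapping genes may have been split. In every library, 100% of values were whole multiples of 1 step within a tolerance of 0.01, which recovered 19524936 to 22538004 reads per library. Those reads carry no molecular identifiers.

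The 13928 genes averaging 10 normalized counts or more were tested on log2(normalized count + 1), which understates changes of low genes, with limma 3.58.1 in R 4.3.3, treatment as the only term, a mean-trended variance prior, two-sided p-values and Benjamini-Hochberg adjustment over all tested genes at 0.05. P-values of the 9 genes are not reported, since this contrast chose them. The members and lists were chosen with earlier results of these data known. Within each list the named genes are those past the threshold and up to 3 others with the highest mean. Added to these were the 5 genes most like CLDN1 by each measure and 2 neighbours per side in the RefSeq gene order. Some items that this rule or the marker lists hold are not reported here. Symbols came from the supplied table for 35803 IDs and from GENCODE 29 for 29 more. Upstream sequences are from RefSeq. Alternatives included other pseudocounts, filters and scalings, count models on the recovered reads with edgeR 4.0.16 and DESeq2 1.42.0, the replicate number as a block and each library left out. The fits were tested on simulated data.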

Additional observations from a re-analysis of the deposited data

How the results depend on the processing

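CLDN1 was higher in CA4 under all 18 alternatives, with log2 differences between 1.93 and 2.68, and CLDN12 was higher in all 18. Against 688 of all genes, 1 member and 3 other junction genes past the threshold, the counts were 103, 0 and 1 without the variance trend, 1613, 2 and 9 with DESeq2 on the recovered reads, and 2397, 2 and 14 with the replicate number as a block (replicate block). Leaving out each library in turn gave 81 to 994 of all genes, 0 to 1 member and 0 to 5 other junction genes, the lowest total when DMSO replicate 3 was absent and the highest when DMSO replicate 1 was. Such fits have fewer samples, all of them the same number. The cause of these and the other shifts was not tested.

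Deviations from the group means correlated at 0.202, 0.159 and 0.059 between libraries of the same number, and 5 of 6 libraries correlated best with their own number. The labels do not say what a number stands for, so it was left out of the main fit. Whether the numbers pair the libraries was not settled, and the adjusted p-values given for single genes may depend on it. Counts with the number as a block are given above.

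Scaling to the same total moved the median of all tested genes from -0.008 to -0.109, and 34.79% of calls were then higher against 60.03%. Signs reversed for TJP1 as given above, for OCLN and JAM3 without single libraries (-0.024 to 0.486 and -0.132 to 0.009), for CLMP without DMSO replicate 3 (-0.032; range without a library -0.032 to 0.497), for AMOTL1 after quantile normalization (-0.012), with the same total (-0.022) and without single libraries (-0.029 to 0.236), and for CD81 without single libraries (-0.128 to 0.013). By coding length CLDN1 stood at place 4 in DMSO and 1 in CA4, and by counts alone at place 3 in CA4. Depth limits MARVELD2, CGN and OCLN, with 21, 46 and 131 reads in all.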
